A study of Mus musculus with 6 samples.

Results

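The genes of the respiratory chain and of ATP synthase were followed in Th17-differentiated CD4 T cells of lupus-prone and control mice. The members were the protein-coding features of the deposited expression table whose symbols begin with Nduf, Uqcr, Cox4, Cox5, Cox6, Cox7, Cox8, Atp5, mt-Nd, mt-Co, mt-Cyt or mt-Atp, together with Sdha, Sdhb, Sdhc, Sdhd, Cyc1 and Cycs, and without Ndufs5. This rule took 107 of 33300 features, of which 17973 are protein-coding. The nuclear genome encodes 94 of the members and the mitochondrial genome 13. By complex they fall into 51 genes of complex I, among them 8 assembly factors, 4 of complex II, 10 of complex III, 22 of complex IV, 19 of complex V and the single gene of cytochrome c.

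The respiratory chain is a series of enzymes in the inner mitochondrial membrane. Complexes I and II pass electrons from NADH and succinate to coenzyme Q, complex III passes them on to cytochrome c, and complex IV gives them to oxygen. Complexes I, III and IV pump protons, and complex V, ATP synthase, uses the proton gradient to make ATP. All complexes but complex II combine subunits made in the cytosol with subunits encoded in the mitochondrial genome. Activated T cells use this chain beside glycolysis, and both Th17 cells and lupus T cells are known for changes in its use.

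The libraries came from naive CD4 T cells of age-matched female mice. The 3 control mice were labelled WT, and the 3 lupus-prone mice SLE1.2.3, commonly the name of a congenic line with the lupus loci Sle1, Sle2 and Sle3. Cells of both groups were stimulated on plates coated with antibodies to CD3 and CD28 for 5 days, with 1 ng/mL TGFβ1, 50 ng/mL IL-6, 10 ng/mL IL-1β, 10 ng/mL IL-23 and 10 µg/mL each of antibodies to IL-4 and IFNγ. Polyadenylated RNA was sequenced from 1 library per mouse, and libraries go by the genotype and the number of the mouse. Values are FPKM, the fragments per kilobase of a gene and per 1000000 assigned, so that levels can be compared between genes per length. The strain behind the label WT and whether cells were sorted again after culture are not stated in the labels.

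Assigned reads came to between 29.7 and 56.8 times 1000000 in the controls and between 61.7 and 83.5 times 1000000 in the SLE1.2.3 libraries, so the groups did not overlap in depth. The 4 markers of αβ CD4 T cells summed to 890 to 981 FPKM in the controls and to 966, 730.5 and 546 in SLE1.2.3 mice 1, 2 and 3. Cd4 itself stood at 246, 264 and 253 FPKM in the controls and at 257, 144 and 71.6 in SLE1.2.3. None of the 4 markers passed the test. The 5 Th17 markers summed to 842 to 1559 FPKM in the controls and 2572 to 2990 in SLE1.2.3, and 4 of the 5 passed the test as higher. Of the 4 matched γδ T cell markers 3 passed as higher, of the 2 CD8 markers 0, of the 3 NK cell markers 1 and of the 4 B cell markers 1. The γδ markers summed to 1.91 to 2.32 FPKM in the controls and 29.7, 159 and 342 in SLE1.2.3 mice 1, 2 and 3, and the CD8 markers Cd8a and Cd8b1 to 4.65 to 5.6 FPKM against 7.69, 49.9 and 110.2. Summed NK cell markers were 5.71 to 6.98 FPKM against 20 to 32.5, with Ncr1 and Klrb1c near 0. Summed B cell markers were 1.45 to 3.12 FPKM against 59.0 to 153, with Igkc carrying nearly all of the sum and Ms4a1 at most at 0.043. In such bulk RNA, fewer cells of a type and less RNA per cell cannot be told apart. What part these cells have in the results on the respiratory chain was not tested.

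Respiratory chain transcripts differed little between the genotypes. Of the 102 members with a mean of at least 1 FPKM, 5 were lower in SLE1.2.3 and 0 were higher at an adjusted p under 0.05 (limma on log2(FPKM + 1), Benjamini-Hochberg over all 11378 features tested), and 97 did not pass. Of the 5, Cox4i2 reached the minimum level through the controls alone, so nothing is read from its part in this count. Of all features tested 15.2% passed, 9.65% as higher and 5.58% as lower, while 4.90% of the tested members did. At an unadjusted p under 0.05 in the same fit there were 17 of the 102 members, 14 lower and 3 higher, beside 3977 of all 11378 features. The log2 change, SLE1.2.3 minus control, was within 0.25 in either direction for 85.3% of the members and for 64.1% of all features tested. It was within 0.5 for 97.1% of the members and for 84.5% of all features.

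The sign of the small differences leaned to the lower side. The change was negative in 63 of the 102 members and positive in 39, and its median was -0.04 beside 0.01 over all features. The groups did not overlap in 23 members, or 22.5%, 20 of them lower and 3 higher in SLE1.2.3. Over all features tested the share that did not overlap was 41.5%, with 17.7% lower and 23.9% higher. This lean rests on the scaling: with the libraries scaled to a common FPKM sum, 34 members were negative and 68 positive, and 2 members were apart on the lower side and 6 on the higher side. That scaling moved the median of all features from 0.01 to 0.11. With 3 other scalings, by median ratio, by quantiles or without mitochondrial and ribosomal RNA, between 71 and 75 members were negative. The plot of changes by complex shows how narrow the spread was outside complex IV.

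**Figure D1:**
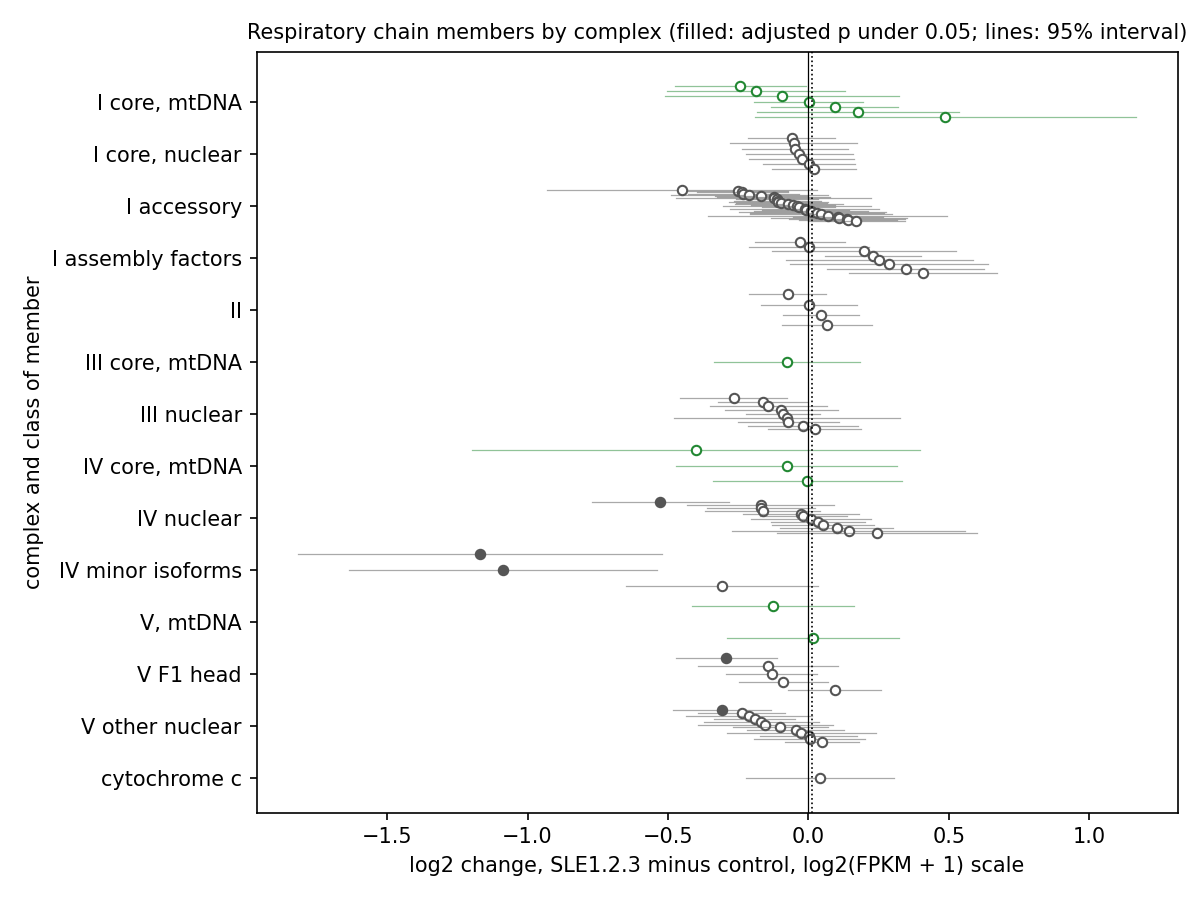
Log2 change of the 102 tested members, SLE1.2.3 minus control on the log2(FPKM + 1) scale, by complex and class, with the 95% interval of each as a line. Mitochondrially encoded members are green, filled points passed the test, and the dotted line marks the median of all features, 0.01. The 5 filled points lie in complexes IV and V, all on the negative side, from -1.17 to -0.29.

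Complex I takes electrons from NADH and is the largest enzyme of the chain. None of its 50 tested members passed with limma, against 8 at an unadjusted p under 0.05, and a second fit on the recovered reads (limma voom) also called 0, with 7 at an unadjusted p under 0.05. The 7 nuclear core subunits, which hold the flavin and the iron-sulfur clusters, kept within -0.06 and 0.02 of the controls on the log2 scale, and all 7 overlapped between the groups. Ndufv1, which binds NADH, stood at 34.5, 35.7 and 32.7 FPKM in the controls and at 31.5, 32.9 and 34.2 in SLE1.2.3. The lowest library was an SLE1.2.3 library and the highest a control, with overlap between them.

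The accessory subunits of complex I surround the core and stabilize it. Of the 28 tested, 0 passed the adjusted threshold, and 18 were negative and 10 positive. The groups did not overlap in 6, or 21.4%, beside 41.5% of all features tested. On the lower side 17.9% were apart, near the 17.7% of all features. The 5 apart on the lower side were Ndufb3, Ndufb6, Ndufc2, Ndufa9 and Ndufa10, and the 1 on the higher side was Ndufb10. Ndufb3, a small membrane subunit of the distal arm, stood at 63.9, 69.6 and 62.3 FPKM in the controls and at 55.3, 53.7 and 56.7 in SLE1.2.3. Every SLE1.2.3 library was below every control, but the change of -0.23 ± 0.067 (log2, SE) had an adjusted p of 0.062. Ndufb6 (-0.25, adjusted p = 0.067) and Ndufc2 (-0.23, adjusted p = 0.0995) lay close to it, and 39.0% of the exonic bases of Ndufb6 are shared with the opposite-strand gene Smim27.

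The highest and the most changed accessory subunits both overlapped between the groups. Ndufa1, a short membrane-anchored subunit with the highest mean of the nuclear complex I genes, stood at 127, 141 and 124 FPKM in the controls and at 149, 123 and 129 in SLE1.2.3. Ndufv3, a subunit of the NADH-binding module, had the largest negative change of complex I, -0.45 ± 0.20, with an adjusted p of 0.163. It stood at 33.3, 37.9 and 31.5 FPKM in the controls and at 33.1, 24.4 and 18.7 in SLE1.2.3. SLE1.2.3 mouse 1 lay within the control range and mice 2 and 3 below it. The sums of the γδ and CD8 markers were lowest in mouse 1 and highest in mouse 3, and their part in this difference was not tested.

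The 8 assembly factors Ndufaf1 to Ndufaf8, which build complex I but are not part of the finished enzyme, leaned the other way. The change was positive in 7 of the 8, with a median of 0.24, but 0 passed the adjusted threshold. An unadjusted p under 0.05 was found for 3 of the 8, and for 3977 of all 11378 features tested. Ndufaf5, which modifies the core subunit Ndufs7, stood at 4.32, 4.12 and 3.70 FPKM in the controls and at 4.82, 5.92 and 6.43 in SLE1.2.3. All 3 SLE1.2.3 libraries were above the controls, and the change was 0.41 ± 0.11 with an adjusted p of 0.054. Ndufaf8, a partner protein of Ndufaf5, stood at 9.27, 9.35 and 9.60 FPKM against 10.2, 11.7 and 11.7, again without overlap (0.23 ± 0.071, adjusted p = 0.073). Ndufaf3, which acts with Ndufaf4 in an early assembly step, had a change of 0.35 (adjusted p = 0.089) and overlapped. In all, 2 of the 8 were apart, both on the higher side, a share near that of all features. Over all features tested 23.9% were apart on that side and 41.5% on either.

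Ndufaf1, part of the module that builds the membrane arm, was the one factor with a negative change, -0.03, and was the highest of the 8 at 14.4 FPKM on average. The summed level of the 8 factors was 52.6, 53.4 and 48.9 FPKM in the controls and 54.7, 61.3 and 63.7 in SLE1.2.3. These sums did not overlap under any of the 5 scalings run, but the margin was narrow. At a common FPKM sum the highest control sum was 55.09 and the lowest SLE1.2.3 sum 55.45. The summed γδ markers rank the SLE1.2.3 libraries in the same order, and their part in this difference was not tested. With SLE1.2.3 mouse 1 left out, Ndufaf5 passed the test (0.51, adjusted p = 0.0067). Without any 1 other mouse it did not (adjusted p of 0.1 to 0.19), and it passed in 2 of 18 alternative fits. Over all features, 2122 were higher and 1583 lower without SLE1.2.3 mouse 1, against 1098 and 635 in the fit reported. Ndufaf2 shares 64.1% of its 50-base windows with the overlapping gene B230220B15Rik, so that its level of 3.37 FPKM on average is uncertain.

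**Figure D2:**
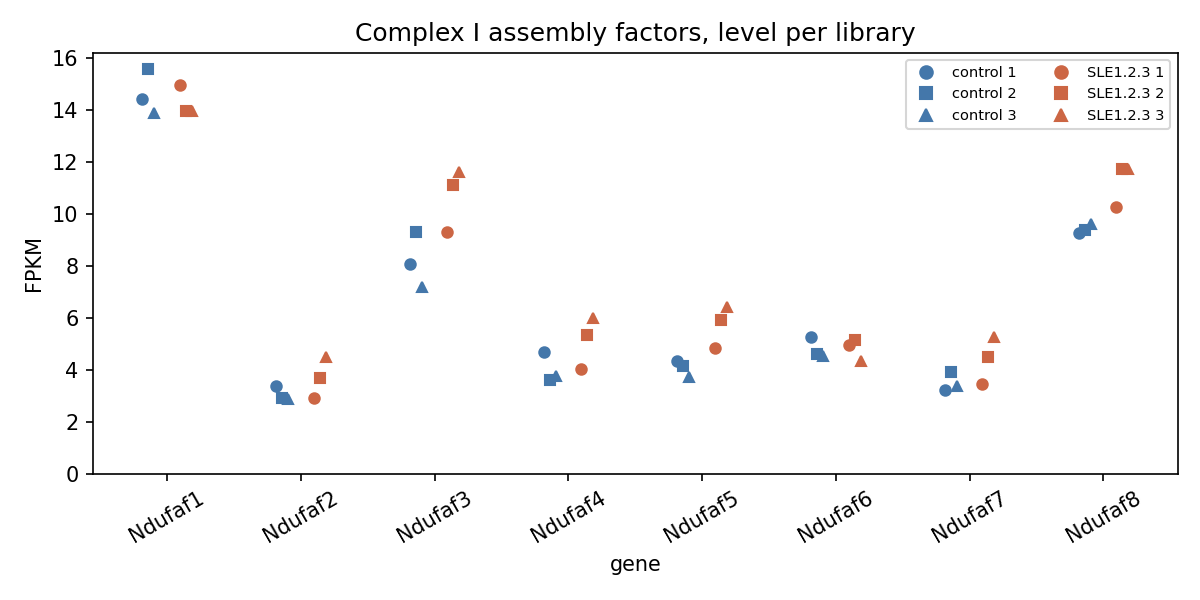
FPKM of the 8 complex I assembly factors in each library, controls in blue and SLE1.2.3 in orange, with 1 symbol per mouse number. Ndufaf5 and Ndufaf8 are the 2 genes in which all SLE1.2.3 points lie above all control points, beside 23.9% of all features tested.

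Complex II links the chain to the tricarboxylic acid cycle and has no mitochondrially encoded subunit. None of its 4 genes passed with limma or with voom, and 0 had an unadjusted p under 0.05. Sdha, the flavin-bearing subunit that oxidizes succinate, stood at 63.2, 65.6 and 62.2 FPKM in the controls and at 60.8, 59.5 and 61.0 in SLE1.2.3. The groups did not overlap, but the change was -0.07 ± 0.056. Sdhd, a membrane anchor and the highest of the 4, stood at 76.8, 78.3 and 75.4 FPKM against 77.9, 79.7 and 80.2. The iron-sulfur subunit Sdhb (0.07) and the anchor Sdhc (0.001) also overlapped. The summed level of complex II was 207.5 to 221 FPKM in the controls and 213 to 220.3 in SLE1.2.3.

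Complex III passes electrons from coenzyme Q to cytochrome c. Of its 10 genes 9 were negative and 0 passed with limma, with 2 at an unadjusted p under 0.05, and voom called 0 with 1 at an unadjusted p under 0.05. Uqcr11, a small peripheral subunit, had the largest change, -0.27 ± 0.079 (adjusted p = 0.068). It stood at 74.3, 68.7 and 63.1 FPKM in the controls and at 58.2, 54.4 and 58.0 in SLE1.2.3, with no overlap. Uqcrc1 and Uqcrc2, the large subunits on the matrix side, were also apart, at -0.09 and -0.16. In all, 3 of the 10 genes were apart, all on the lower side, beside 17.7% of all features on that side and 41.5% on either. The catalytic subunits overlapped: Cyc1, the cytochrome c1 heme subunit, had a change of -0.07 and Uqcrfs1, the Rieske iron-sulfur subunit, of -0.14. The highest nuclear gene of this complex was Uqcrh, the hinge protein, with 133, 145 and 126 FPKM in the controls and 162, 123 and 104 in SLE1.2.3. Its SLE1.2.3 libraries lay both above and below the controls. Cycs, the mobile electron carrier between complexes III and IV, stood at 27.3, 23.3 and 22.4 FPKM against 22.7, 24.2 and 28.2, a change of 0.04 ± 0.11.

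Complex IV, cytochrome c oxidase, held 3 of the 5 members that fell, of 18 tested, beside 5.58% lower over all features. They were the standard subunit Ndufa4 and the minor isoforms Cox6b2 and Cox4i2. Cox4i2 was tested only through its level in the controls, so nothing is read from its part in this count. Ndufa4 fell most clearly. It was named as a complex I subunit but is now placed in complex IV. The gene lies at chr6:11900292-11907497 (GRCm38, minus strand). Its level was 57.2, 57.1 and 53.0 FPKM in the controls and 44.4, 35.3 and 36.1 in SLE1.2.3. All SLE1.2.3 libraries were below all controls, and the mean fell by 30.8%. The log2 change was -0.53 ± 0.10 (SE, n = 3 mice a group), with an adjusted p of 0.024 in the limma fit across all features. The call did not hold without control mouse 1, 2 or 3 or without SLE1.2.3 mouse 2, where the adjusted p was 0.09, 0.097, 0.075 and 0.11. It did not hold at a common FPKM sum either (-0.41, adjusted p = 0.18).

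The paralogue of Ndufa4 had the opposite sign. AA467197, which was looked up after the values of Ndufa4 were seen, is the mouse gene of NMES1, a protein known to take the place of NDUFA4 in complex IV in inflamed tissue. It lies at chr2:122636986-122641191. Its level was 18.7, 14.7 and 14.9 FPKM in the controls and 28.1, 106 and 138 in SLE1.2.3. No SLE1.2.3 library overlapped the controls, but the mice of that group differed widely among themselves, and the change of 2.15 ± 0.56 had an adjusted p of 0.051. Of the summed FPKM of both genes, AA467197 made up 20.5 to 24.7% in the controls and 38.7, 75 and 79.3% in SLE1.2.3 mice 1, 2 and 3. Without SLE1.2.3 mouse 1 AA467197 passed the test (2.84, adjusted p = 0.00011), and without any 1 other mouse it did not (adjusted p of 0.088 to 0.17). The γδ and CD8 marker sums were also far higher in SLE1.2.3 mice 2 and 3 than in mouse 1, and their part in these differences was not tested. With mice 2 and 3 left out together, so that mouse 1 was alone in the group, the change was -0.32 for Ndufa4 and 0.77 for AA467197.

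Both minor isoforms that fell are low in these cells. Cox4i2, the isoform of subunit IV known from lung and hypoxic cells, stood at 1.99, 2.06 and 1.37 FPKM in the controls and at 0.821, 0.144 and 0.084 in SLE1.2.3. These values rest on 79, 92 and 32 reads in the controls and on 54, 7 and 5 in SLE1.2.3. The groups did not overlap, and the mean fell by 80.6% (log2 change -1.09 ± 0.23, adjusted p = 0.029). Its SLE1.2.3 libraries were all below the minimum of 1 FPKM, and with no filter on low values it did not pass (adjusted p = 0.081). The share of Cox4i2 in the sum with Cox4i1 was 0.725 to 1.00% in the controls and 0.0462 to 0.378% in SLE1.2.3, while Cox4i1, the standard isoform, stood at 187 to 203 FPKM against 182 to 216.

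Cox6b2, the isoform of subunit VIb known from testis, stood at 5.13, 6.74 and 3.82 FPKM in the controls and at 2.87, 1.49 and 1.09 in SLE1.2.3. Every SLE1.2.3 library was lower, and the mean fell by 65.3% (log2 change -1.17 ± 0.27, adjusted p = 0.037). Its share in the sum with the standard isoform Cox6b1 was 2.1 to 3.21% in the controls and 0.661 to 1.53% in SLE1.2.3. The gene lies on chr7:4751792-4753094. Left-out mice ended either call: for Cox4i2 the adjusted p rose to 0.075 when control mouse 3 was omitted, and to 0.12 and 0.056 when SLE1.2.3 mouse 2 or mouse 3 was. Without control mouse 1 or 2 the mean of Cox4i2 was under 1 FPKM and it was not tested. For Cox6b2 it lay between 0.066 and 0.14 without any one of the mice other than SLE1.2.3 mouse 1. SLE1.2.3 mice 2 and 3 had the lowest levels of both isoforms and also the highest γδ and CD8 marker sums. The part of these cells in the difference was not tested. Without these 2 mice, with mouse 1 alone in the group, the change was -0.61 for Cox4i2 and -0.66 for Cox6b2.

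**Figure D3:**
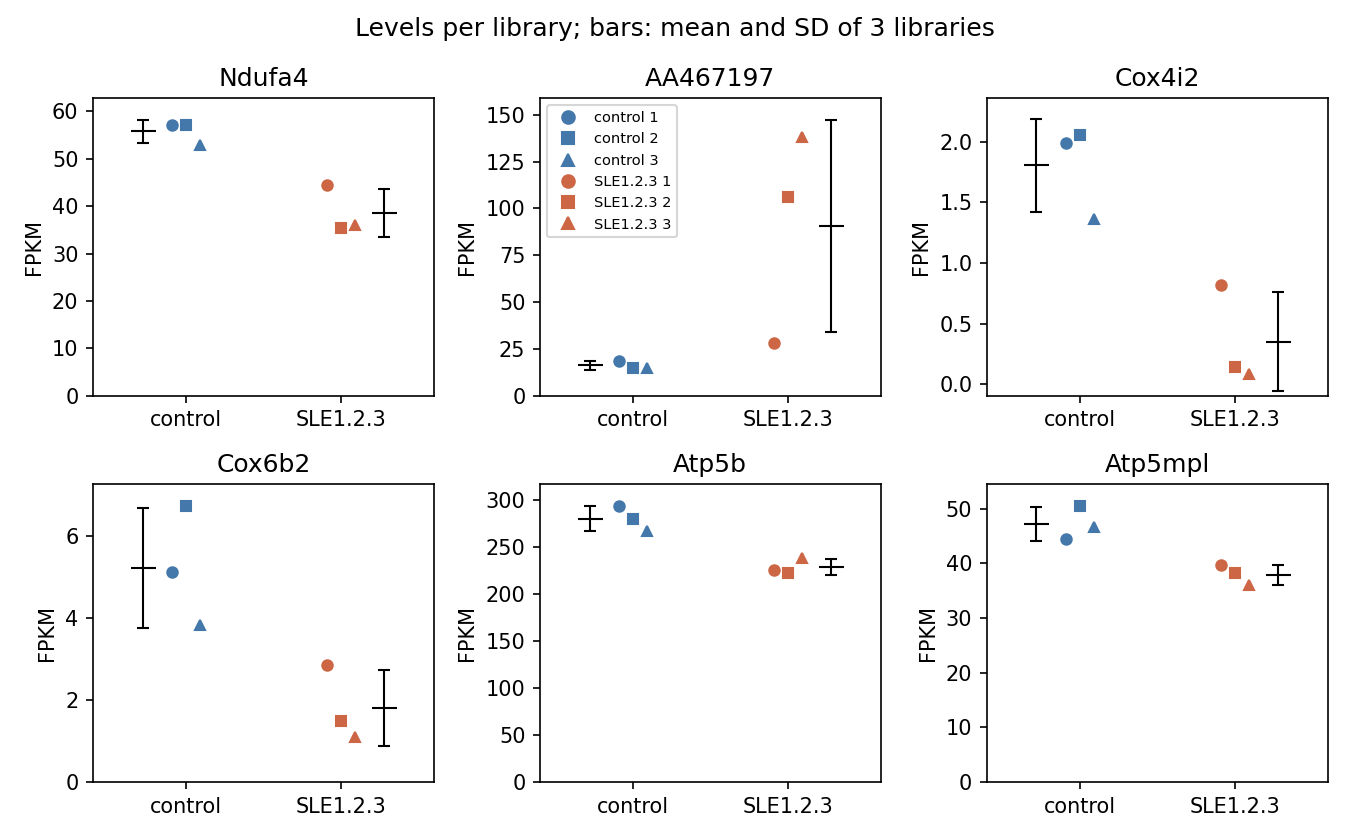
FPKM per library of the 5 members that fell and of AA467197, with the mean and SD of 3 libraries as black bars. For the 5 members all SLE1.2.3 points lie below the control points, and for AA467197 they lie above, from 28.1 to 138 FPKM. The SD bar of Cox4i2 in SLE1.2.3 reaches below 0 because its SD, 0.409, is larger than its mean, 0.350.

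The other isoforms and standard subunits of complex IV did not pass. Cox7a1, the heart and muscle isoform of subunit VIIa, stood at 4.31, 5.30 and 4.90 FPKM in the controls and at 4.73, 3.42 and 3.11 in SLE1.2.3, and overlapped (-0.31, adjusted p = 0.176). Cox7a2, its counterpart in most tissues, stood at 79.2 to 90.9 FPKM against 85.4 to 91.7. Cox7a2l, which links complexes III and IV in supercomplexes, stood at 120.2, 129 and 117 FPKM against 164, 145 and 103. The SLE1.2.3 libraries lay on both sides of the controls. Cox8a was the highest nuclear gene of complex IV, with 226, 227 and 216 FPKM against 236, 231 and 218. Of the 11 standard subunits only Ndufa4 and Cox6c, or 18.2%, were without overlap, both on the lower side. Over all features 41.5% were without overlap, 17.7% on the lower side. Cox6c had a change of -0.17 (adjusted p = 0.190).

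Several minor isoforms were near 0. Cox6a2, Cox8b and Ndufa4l2 reached at most 0.070, 0.093 and 0.055 FPKM, which rest on at most 4, 1 and 5 reads in a library. Cox7b2 was listed at 0 in all 6 libraries, where 3 reads would be 0.0359 to 0.101 per 1000000 assigned. These 4 genes were not tested. The standard isoforms Cox6a1, at 168 to 225 FPKM, and Cox7b, at 76.0 to 81.9, were high in every library.

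Complex V held the other 2 members that fell, of 19 tested, beside 5.58% lower over all features. It joins a catalytic head, F1, to a membrane part with the rotating ring of c subunits. Of its 17 nuclear genes 13 were negative, 6 did not overlap on the lower side and 0 on the higher side, and the median change was -0.13. Over all features 17.7% were apart on the lower side and 23.9% on the higher side, and the median was 0.01. Atp5b encodes the β subunit, which makes ATP, and was the highest nuclear member of all at 255 FPKM on average. It stood at 294, 280.1 and 268 FPKM in the controls and at 226, 222 and 239 in SLE1.2.3. The groups did not overlap, and the mean fell by 18.4% (log2 change -0.29 ± 0.075, adjusted p = 0.048). Its partner in the head, the α subunit gene Atp5a1, stood at 250.4, 238 and 239.5 FPKM against 228, 222 and 215, apart but not past the threshold (-0.13, adjusted p = 0.217).

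Atp5mpl, a small membrane subunit of the enzyme, stood at 44.4, 50.4 and 46.6 FPKM in the controls and at 39.6, 38.1 and 35.9 in SLE1.2.3. It too was without overlap, and its mean fell by 19.7% (log2 change -0.31 ± 0.073, adjusted p = 0.040). Neither call was firm. Atp5b passed in 8 and Atp5mpl in 10 of 19 alternative fits, with a negative sign in all of them. Without 1 mouse both held only when SLE1.2.3 mouse 1 was the one left out, and the adjusted p otherwise lay between 0.055 and 0.2. At a common FPKM sum the changes were -0.17 (adjusted p = 0.64) and -0.19 (adjusted p = 0.54), and voom on recovered reads gave Atp5b an adjusted p of 0.058.

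The c ring is built from identical proteins encoded by Atp5g1, Atp5g2 and Atp5g3. Atp5g3, the most abundant, stood at 129, 136 and 129.98 FPKM in the controls and at 111, 108 and 116 in SLE1.2.3, with no overlap and a change of -0.24 ± 0.064 (adjusted p = 0.055). Atp5g2 overlapped (-0.15), and Atp5g1 stood at 13.8 to 14 FPKM against 13.9 to 14.7. The share of Atp5g1 in the sum of the 3 was 6.23 to 6.68% in the controls and 7.24 to 8.01% in SLE1.2.3. Among the stalk and membrane genes, Atp5o, which links the head to the stalk, had a change of -0.19 (adjusted p = 0.076) and Atp5k of -0.17 (adjusted p = 0.209), both apart. Of the coding bases of Atp5o, 47.1% lie in exons of overlapping genes, so its level is uncertain. Atp5e, the ε subunit of the head, was the one F1 gene with a positive change, 0.09.

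Added up, complex V was the complex whose nuclear genes were apart between the groups. Their summed level was 1497, 1506 and 1409 FPKM in the controls and 1373, 1303 and 1304 in SLE1.2.3. All 3 SLE1.2.3 sums were below the controls, also under 3 other scalings, but at a common FPKM sum they overlapped (1160 to 1568 against 1357 to 1395). The F1 genes alone summed to 812, 790 and 757 FPKM against 720, 698 and 687, and the c ring genes to 210.0, 222 and 211 against 192, 188 and 184. The nuclear sums of complexes I, II, III and IV overlapped. Control mouse 3, the library with the fewest reads, had the lowest control sum in each of the 5 complexes.

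**Figure D4:**
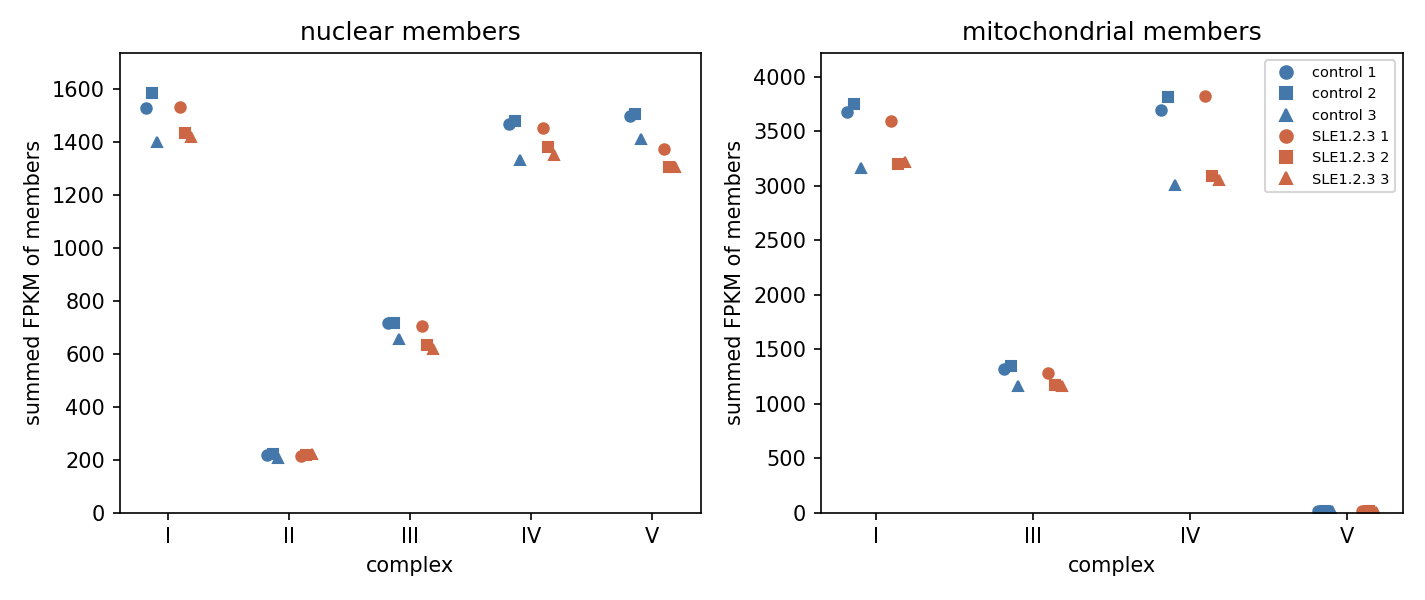
Summed FPKM of the nuclear members (left) and the mitochondrially encoded members (right) of each complex in each library, controls in blue and SLE1.2.3 in orange. The nuclear genes of complex V are without overlap, with 1409 to 1506 FPKM in the controls and 1303 to 1373 in SLE1.2.3, and the other sums overlap.

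The 13 mitochondrially encoded members ranged from 1.65 to 3389 FPKM on average. Their levels have to be read with their sequences, since parts of the mitochondrial genome are copied almost without change on chromosome 1. The 120 first bases of 2 of the genes and of their annotated copies (GENCODE M21, GRCm38) are shown because a read from such a stretch fits both places. Capitals mark the single difference, T3C from gene to copy, counted from 1 at the first base of the gene.
mt-Co2: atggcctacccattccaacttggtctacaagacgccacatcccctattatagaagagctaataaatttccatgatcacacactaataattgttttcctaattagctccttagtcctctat
Gm28661: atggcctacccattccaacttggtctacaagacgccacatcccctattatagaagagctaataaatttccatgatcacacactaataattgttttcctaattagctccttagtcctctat
mt-Nd3: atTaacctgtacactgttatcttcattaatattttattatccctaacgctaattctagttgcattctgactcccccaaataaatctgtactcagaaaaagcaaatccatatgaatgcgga
Gm28438: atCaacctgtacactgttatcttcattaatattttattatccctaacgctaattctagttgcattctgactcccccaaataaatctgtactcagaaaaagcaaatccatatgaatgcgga
Over its whole length the pseudogene Gm28661, at chr1:24614885-24615565, equals mt-Co2 in 681 of 681 aligned bases, and Gm28438, at chr1:24612775-24613119, equals mt-Nd3 in 344 of 345.

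Of the 50-base windows of mt-Co2, mt-Co3, mt-Atp6, mt-Nd4l and mt-Nd3, between 98 and 100% occur in a second annotated gene. These 5 genes had mean levels of only 4.59 to 23.4 FPKM. The genes with few or no shared windows, mt-Nd1, mt-Nd2, mt-Nd5, mt-Nd6 and mt-Cytb, had means of 507 to 1444 FPKM. With 62.2% of its windows shared, mt-Nd4 had a mean of 319 FPKM, and mt-Co1, with 51.1%, had the highest mean of all members at 3389 FPKM. The counting rule for reads that fit several places is not stated in the labels, so the levels of the 5 genes and of their copies cannot be told apart. Of the copies on chromosome 1, Gm28661 stood at 13.2 to 17.4 FPKM, Gm28437 (the copy of mt-Co3) at 11.7 to 14.9, Gm10925 (the copy of mt-Atp6) at 13.4 to 18.5 and Gm10222 (the copy of mt-Nd4l) at 2.06 to 4.05. Gm28438, the copy of mt-Nd3, stood at 2.05 to 3.51 FPKM, below mt-Nd3 in every library.

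The gene mt-Atp8 had no window in another annotated transcript and yet a mean of only 1.65 FPKM, on 12 to 29 reads. It overlaps mt-Atp6 in 21.1% of its bases. Between the copies of mt-Atp6 and mt-Co2 on chromosome 1 lie 233 bases without an annotated transcript, and no genome sequence was at hand to compare them with mt-Atp8.

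None of the 13 mitochondrially encoded members passed the test with limma, with 1 at an unadjusted p under 0.05, and voom also called 0, with 1 at an unadjusted p under 0.05. That gene was mt-Nd2, a proton-pumping subunit of complex I, with 626, 678 and 578 FPKM in the controls and 554, 500.5 and 535 in SLE1.2.3. It was the only one of the 13 whose groups did not overlap, at a change of -0.24 ± 0.097 (adjusted p = 0.132). That is 7.69%, beside 41.5% of all features tested, or 17.7% on the lower side. Of all 11378 features tested, 3977 had an unadjusted p under 0.05 in the limma fit. For mt-Nd1, which forms part of the coenzyme Q site, levels were 1636, 1636 and 1343 FPKM against 1491, 1274 and 1280.2. For mt-Cytb, the heme-bearing core of complex III, they were 1318, 1346 and 1160 against 1278, 1176 and 1163, and for mt-Co1, the oxygen-reducing core of complex IV, 3659, 3789 and 2987 against 3802, 3064 and 3032. In all 3 genes control mouse 3 was the lowest control, SLE1.2.3 mouse 1 was the highest SLE1.2.3 library, and SLE1.2.3 mouse 1 lay above control mouse 3.

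Of the remaining complex I genes, mt-Nd5 was level, at 532 to 576 FPKM in the controls and 549 to 573 in SLE1.2.3. The change was 0.09 for mt-Nd4 and 0.18 for mt-Nd6, both with overlap. The gene mt-Nd6 lies on the strand opposite to the others, and with no strand setting stated its reads and RNA of the other strand cannot be told apart. Single libraries set the value of 2 genes that are nearly all copied on chromosome 1. For mt-Nd3, SLE1.2.3 mouse 3 stood at 43.1 FPKM and the other 5 libraries at 17.4 to 22.3, so that the largest positive change of all members, 0.49, had an adjusted p of 0.265. For mt-Co3, control mouse 1 stood at 26.3 FPKM and the others at 9.73 to 12, with a change of -0.40 (adjusted p = 0.421). The changes of mt-Co2, mt-Atp6, mt-Nd4l and mt-Atp8 were -0.004, 0.02, -0.09 and -0.13, all with overlap.

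**Figure D5:**
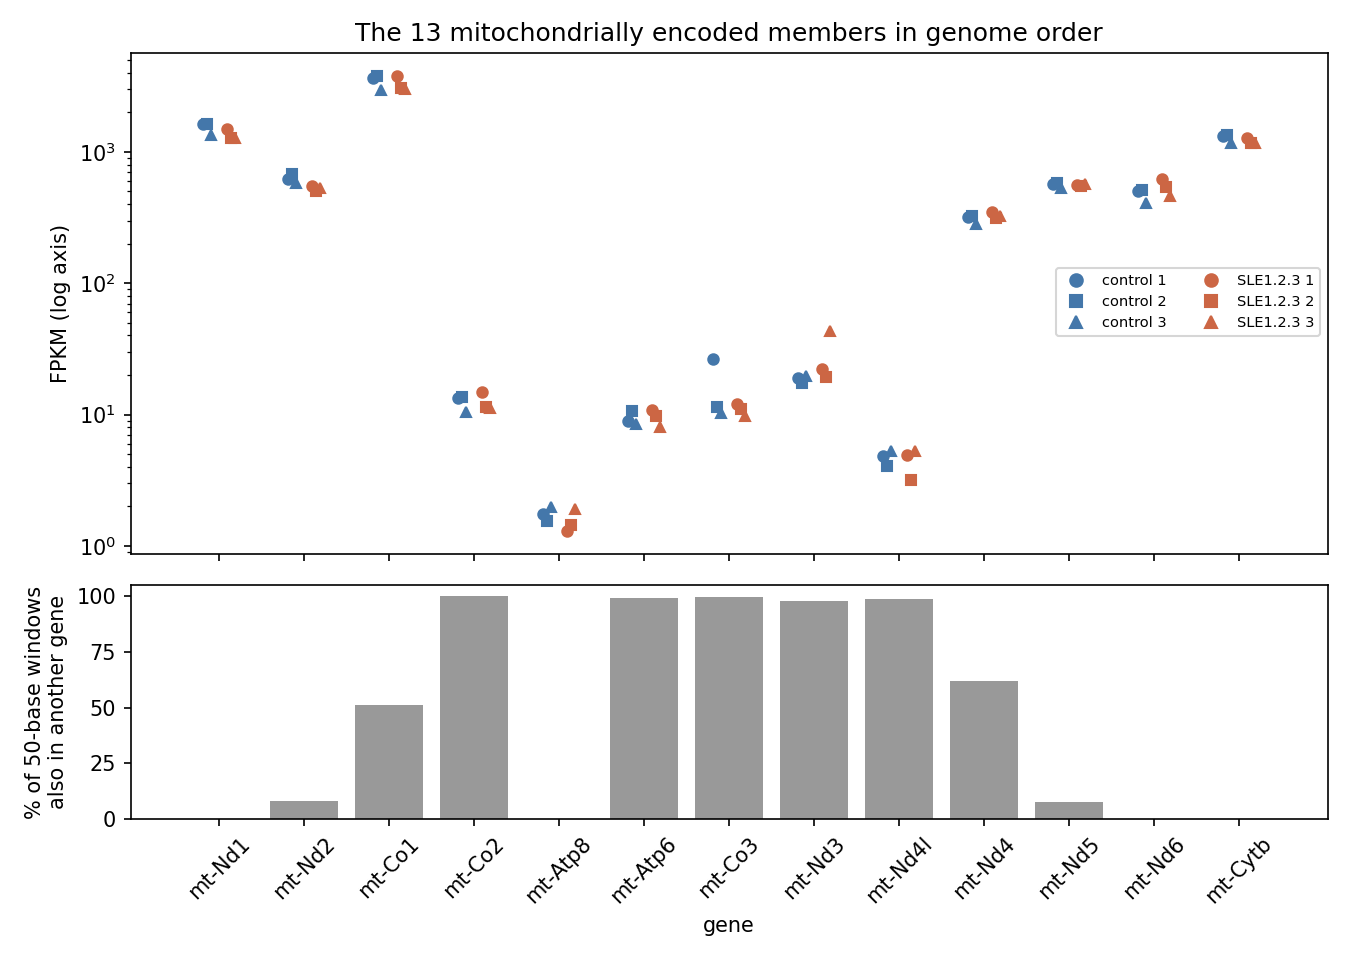
Upper panel: FPKM, on a log axis, of the 13 mitochondrially encoded members in each library, in the order of the mitochondrial genome. Lower panel: the percentage of each gene's 50-base windows that also occur in another annotated gene. The 5 genes at 98% or more stand at 4.59 to 23.4 FPKM on average, and mt-Nd1, mt-Nd2, mt-Co1, mt-Nd4, mt-Nd5, mt-Nd6 and mt-Cytb at 319 to 3389.

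Whether the balance of the 2 genomes was apart between the groups depended on the measure. The mitochondrially encoded members took 1.12, 1.15 and 0.943% of the assigned reads in the controls and 1.12, 0.956 and 0.957% in SLE1.2.3, and the nuclear members took 0.962, 0.967 and 0.891% against 0.909, 0.871 and 0.869%. Both overlapped between the groups. Per length, the median member level was 280.2 to 328 FPKM for mitochondrial and 43.7 to 49.5 FPKM for nuclear members in the controls, and 312 to 350 and 42.6 to 44.5 FPKM in SLE1.2.3. The log2 ratio of the nuclear to the mitochondrial median was -2.78, -2.73 and -2.68 in the controls and -2.97, -2.87 and -2.88 in SLE1.2.3, lower in SLE1.2.3 without overlap. In every library that mitochondrial median was the level of 1 gene, mt-Nd4, with 62.2% of its windows shared. Within complex III the ratio was also apart, at -4.29 to -4.20 against -4.46 to -4.33, and there it rests on mt-Cytb, the only mitochondrial gene. Neither difference therefore stands for the mitochondrial genome as a whole. In complexes I, IV and V the ratio overlapped. The log2 ratio of summed nuclear to summed mitochondrial FPKM was -0.69 to -0.55 in the controls and -0.72 to -0.58 in SLE1.2.3, with overlap. The median log2 change was -0.04 over the 89 tested nuclear members and -0.08 over the 13 mitochondrial ones, and both turned positive, 0.07 and 0.04, at a common FPKM sum. Of the mitochondrial genes of complexes IV and V, mt-Atp8 alone shared no window with another annotated gene.

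Promoters of nuclear members hold binding motifs of nuclear respiratory factor 1 (NRF1) and of ETS factors such as GABP, which are known to drive respiratory genes. Of the 94 nuclear members 77 matched a promoter window in RefSeq (GRCm38.p6), from 250 bases before to 50 bases after the start. Windows were searched on both strands for the NRF1 motif and for 4 further motifs. The ETS motif was read as CCGGAAG. The GC box, bound by Sp1, was read as GGGCGG. The CCAAT box was read as its own name, and the YY1 motif as AAGATGG. A base could belong to matches of several motifs. The NRF1 motif occurred in 18 of the 77 windows (23.4%) and in 5.19% of the windows of all 27025 genes. The ETS letters occurred in 24.7% against 9.93%, and the YY1 letters in 15.6% against 7.28%. The GC box was in 46.8% against 38.2% and the CCAAT box in 45.5% against 41.1%. These are matches of letters and not measured binding. The 27025 genes were not limited to protein-coding genes or to genes expressed here, so they differ from the members in more than the respiratory chain.

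The windows of Atp5b and Cox6b2, which fell, and of Ndufaf5 are shown 5′ to 3′ on the strand of the gene. Ndufaf5 was picked as the member with an NRF1 match and the smallest adjusted p, so its match was fixed by that choice. Capitals mark the matched letters or their reverse complement. Atp5b (chr10:128083057-128083356, plus strand) has 5 CCAAT boxes and 2 GC boxes, Cox6b2 (chr7:4753045-4753344, minus strand) 3 CCAAT boxes and 1 GC box, and Ndufaf5 (chr2:140170396-140170695, plus strand) 1 NRF1 match.
Atp5b: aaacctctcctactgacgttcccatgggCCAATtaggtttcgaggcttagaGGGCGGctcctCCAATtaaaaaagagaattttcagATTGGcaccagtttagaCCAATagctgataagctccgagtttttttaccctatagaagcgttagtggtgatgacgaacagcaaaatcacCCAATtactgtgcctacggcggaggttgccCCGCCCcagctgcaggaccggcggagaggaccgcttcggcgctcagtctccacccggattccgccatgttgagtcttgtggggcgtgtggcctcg
Cox6b2: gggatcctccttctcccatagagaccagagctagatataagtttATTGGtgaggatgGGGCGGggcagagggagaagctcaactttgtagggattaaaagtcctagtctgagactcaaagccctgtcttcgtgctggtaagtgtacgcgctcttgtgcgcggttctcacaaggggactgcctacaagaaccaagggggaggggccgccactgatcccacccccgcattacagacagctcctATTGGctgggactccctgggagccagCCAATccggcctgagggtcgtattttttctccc
Ndufaf5: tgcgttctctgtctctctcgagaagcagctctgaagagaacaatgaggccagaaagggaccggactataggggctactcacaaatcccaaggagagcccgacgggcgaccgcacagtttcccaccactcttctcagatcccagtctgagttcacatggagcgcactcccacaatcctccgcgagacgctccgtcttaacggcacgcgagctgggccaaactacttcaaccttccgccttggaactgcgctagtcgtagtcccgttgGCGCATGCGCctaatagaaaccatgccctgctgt
The window of Ndufa4 held none of the 5 motifs. Cox4i2 and Atp5mpl, the other members that fell, had no matched window, likewise, among others, Ndufa2, Ndufb9, Ndufaf6, Ndufs1, Sdhc, Uqcrb, Uqcrc2, Uqcrq, Cyc1, Cox6a2, Ndufa4l2, Cox4i1, Cox6c and Atp5a1.

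Counting could split reads of other members too. Of the 107 members 44 shared no 50-base window with another annotated gene and 8 shared over 50%. The 5 members that fell shared none, other than Atp5b with 2.30%. Ndufb2, a subunit of the membrane arm of complex I, was below 1 FPKM in all 6 libraries, from 0.391 to 0.669, and was not tested. Of its 315 coding bases, 72.7% lie in exons of Gm16272, Gm42420 or Braf. Reads of these genes and of Ndufb2 cannot be told apart here.

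Other genes of mitochondrial energy metabolism gave a mixed picture. Of 131 genes listed for assembly, mitochondrial gene expression, biogenesis, the tricarboxylic acid cycle, carriers and cristae, 127 matched a feature and 119 were tested. Of these 6 were higher and 4 lower at an adjusted p under 0.05 and 109 did not pass, so that 8.40% passed beside 15.2% of all features tested. The higher genes were Cox10, Coa4, Sdhaf4, Mterf3, Hccs and Etfb, and the lower ones Slc25a5, Pdha1, Suclg2 and Twnk.

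Assembly factors of complex IV had 2 of 20 tested genes higher and 0 lower, near the share of 9.65% higher over all features. Cox10, which makes the heme A precursor of complex IV, rose from 10.3, 10.8 and 10.8 FPKM to 13.8, 15.2 and 14.4 (0.41 ± 0.060, adjusted p = 0.013). Coa4 rose by 0.37 (adjusted p = 0.044). Among complex II factors 1 of 3 was higher, Sdhaf4, which binds Sdha during assembly, at 5.11, 5.78 and 5.96 FPKM against 7.88, 7.62 and 7.27 (0.38, adjusted p = 0.026). Hccs, which attaches heme to cytochromes c and c1, rose from 13.7, 14.1 and 12.4 FPKM to 17.9, 19.9 and 20.2 (0.50 ± 0.078, adjusted p = 0.015). In these 4 genes no SLE1.2.3 library overlapped the controls. No gene of the complex I factors outside the Ndufaf series (9 tested), of the complex III factors (5) or of the complex V factors (4) passed.

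Of the 4 lower genes, Slc25a5, an ADP/ATP carrier that exchanges the product of complex V with the cytosol, had the largest change. It fell from 531, 512 and 478 FPKM to 374, 324 and 294, without overlap (-0.62 ± 0.11, adjusted p = 0.021). Slc25a4, the other ADP/ATP carrier tested, stood at 84.8 to 95.4 FPKM against 86.8 to 92.4 (-0.02). Vdac1, a channel of the outer membrane, had a larger negative change than Slc25a5 but did not pass (-0.69 ± 0.19, adjusted p = 0.058). Of 18 genes of the tricarboxylic acid cycle and of pyruvate entry, 2 were lower and 0 higher, beside 5.58% lower over all features. These were Pdha1, a subunit of pyruvate dehydrogenase (-0.26, adjusted p = 0.041), and Suclg2, a subunit of succinate-CoA ligase (-0.30, adjusted p = 0.027). Atpif1, the inhibitor of complex V, was apart on the lower side, at 26.4, 26.6 and 22.5 FPKM against 22.1, 17.7 and 18.2, and did not pass (-0.37, adjusted p = 0.069).

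Among 17 tested genes of mitochondrial DNA maintenance and transcription, Mterf3, a repressor of mitochondrial transcription, was higher (0.26, adjusted p = 0.039) and Twnk, the replicative helicase, lower (-0.35, adjusted p = 0.047). Tfam, which packs the mitochondrial genome, had a change of -0.19 (adjusted p = 0.090). The 11 tested regulators of biogenesis, among them Nrf1 (-0.01), Gabpa (0.10) and Myc (-0.24), had 0 past the threshold, and the 3 closest were Sirt1, Esrra and Sirt3, at 0.35, 0.28 and 0.32 with an adjusted p of 0.065, 0.080 and 0.090. No gene of the supercomplex and cristae list passed, and Chchd6 was closest (-0.38, adjusted p = 0.055). Each of the 10 genes that passed lost its call when any 1 control mouse or SLE1.2.3 mouse 2 was left out, with an adjusted p of 0.056 to 0.17. At a common FPKM sum Slc25a5 (-0.50, adjusted p = 0.14), Coa4, Mterf3, Twnk, Pdha1 and Suclg2 did not pass.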

How the data were processed

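RNA of 6 libraries was analysed, 1 from each of 3 control and 3 SLE1.2.3 mice, which the labels number as separate mice, so p-values measure the spread between mice. The authors deposited FPKM values for 33300 features with coordinates and lengths, per the file headers. Per the submitters' processing notes the tools were featureCounts 2.0.0, STAR 2.7.3a, DESeq2 1.24.0, cutadapt 2.10 and FastQC 0.11.9, on mm10; their order and settings are not listed. The annotation release, the strand setting and the handling of reads that fit several places are not stated there. All 107 members had the coordinates and lengths of GENCODE M21.

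The members and gene lists were chosen with earlier results of these data known. Features with a mean of at least 1 FPKM were fitted on log2(FPKM + 1), which makes changes of low genes look smaller, with limma 3.58.1 in R 4.3.3 (1 term, genotype; moderated variances that follow the mean level). Benjamini-Hochberg adjustment ran over all 11378 features, and the threshold was 0.05. No test was run over a list. The steps between low FPKM values gave the reads per library; 100.0% of the values under 30 reads were whole within 0.15 of a read. The test on these reads (limma voom) called 925 features higher and 578 lower, against 1098 and 635 in the fit reported. Precision at low levels was least in control mouse 3, where 3 reads are 0.101 per 1000000 assigned, and read numbers give counting error only. The fit was tested on simulated data.

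Genes with values in the text are all members past the threshold, the highest and the most changed of each complex, the mitochondrially encoded genes, isoform pairs, members under 1 FPKM and up to 3 genes of each further list by adjusted p. AA467197, Slc25a4, Vdac1, Tfam, Nrf1, Gabpa, Myc and members named as apart or close to the threshold were chosen after their values were seen. Exact 50-base windows of the annotated transcripts were compared between genes. Alternatives were the pseudocount 0.1, a minimum mean of 5 FPKM or none, 4 scalings, 3 variance settings, voom, the mouse number as a block, and mice left out. The values of 1 member are not reported here.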

Additional observations from a re-analysis of the deposited data

How the results depend on the processing

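The number of members past the threshold, 5 in the fit reported and all nuclear, depended on the processing, and every call in the alternatives other than array weights and the fit without SLE1.2.3 mouse 1 was on the lower side. It was 0 with no filter on low values (17 at an unadjusted p under 0.05), 2 at a mean of at least 5 FPKM, 2 at a common FPKM sum, 8 without mitochondrial and ribosomal RNA in the scaling, 10 by median ratio, 10 by quantiles and 47 with array weights, whose estimate stopped before it converged. Of these 47, 11 were higher and 36 lower, 43 were nuclear and 4 mitochondrially encoded. With each mouse left out in turn it was 0 to 13; the 13, 6 higher and 7 lower, came without SLE1.2.3 mouse 1, and with mice 2 and 3 of that group left out together it was 0 (11 at an unadjusted p under 0.05). The pseudocount 0.1, no trend and the robust variance gave 5 and voom 4. The median change of nuclear members, -0.041, was 0.074 at a common FPKM sum, -0.066 by median ratio, -0.074 by quantiles, -0.075 with array weights and -0.092 to -0.009 with a mouse left out. That of mitochondrially encoded members, -0.077, was 0.041 at a common FPKM sum and 0.050 without SLE1.2.3 mice 2 and 3. The cause was not tested. Over all features, 990 were higher and 351 lower at a common FPKM sum and 969 and 893 by quantiles, against 1098 and 635. With the replicate block, the mouse number as a term, 3 members passed; same-numbered mice correlated at -0.004, 0.1 and 0.091 in their deviations, so the numbers were not taken to pair the mice. No sign of a called gene reversed in any alternative. The limits are 3 mice a group, a depth that differs between the groups, and reads that several genes share.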
